A study of Mus musculus with 6 samples.

Results

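The genes described are 32 components, regulators and receptors of the complement system, taken by symbol from a table of 48897 genes. All 32 symbols were found. RNA came from sinusoidal endothelial cells, the fenestrated lining of the liver's capillaries, of C57BL/6 mice aged 7 to 8 weeks. One group of 3 libraries came from mice after a partial hepatectomy (PHx, in which liver lobes are cut away) and the other group of 3 from mice with a sham operation, all on day 14 after surgery. The libraries are numbered 1, 3 and 4 in each group. Cells had been purified by magnetic beads against CD146, which other vessel and perivascular cells can also carry, and no gene was altered. The labels do not say that the libraries came from separate animals, so p-values measure the spread between these libraries, which may be technical. Because the samples are bulk RNA, more cells of a type and more RNA per cell cannot be told apart.

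Complement is a cascade of plasma proteins that marks particles for uptake and can puncture membranes. The classical pathway starts with C1q and its proteases C1r and C1s, the lectin pathway with mannose-binding lectins and the MASP proteases, and the alternative pathway with factors B and D. All of them meet at C3, and the terminal components from C5 to C9 then build the membrane pore. Most circulating components are made by hepatocytes, while C1q comes mainly from macrophages. Stromal cells such as stellate cells and fibroblasts can also make C1r, C1s, the C1 inhibitor and MASP-1. Membrane regulators protect the body's own cells.

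Of the 32 genes, 31 had enough counts to be tested, 2 rose after PHx, none fell, and 29 did not pass in edgeR's quasi-likelihood test at an adjusted p under 0.05. For calls in either direction, 2 of 31 compare with 0.862% of all tested genes. The genes that rose were C1s1, the protease of the C1 complex, and C3, the central component. Among all 19033 tested genes 0.846% were called higher and 0.0158% lower. At an unadjusted p under 0.05 there were 6 of the 31, against 12.7% of all tested genes. The median log2 fold change of the 31 was 0.04, with 17 positive and 14 negative values, beside a median of 0.03 over all tested genes. All PHx libraries lay above all sham libraries for 6 of the 31 genes and below them for 1, against 10.6% and 9.95% of all tested genes (20.5% in either direction). DESeq2, an alternative test, called 4 of the 31 higher and none lower, where it called 3.79% of all tested genes higher and 0.662% lower. The edgeR calls rest on few libraries: without Sham 4, no gene of the whole table was called in either direction, with 2241 genes at an unadjusted p under 0.05.

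**Figure D1:**
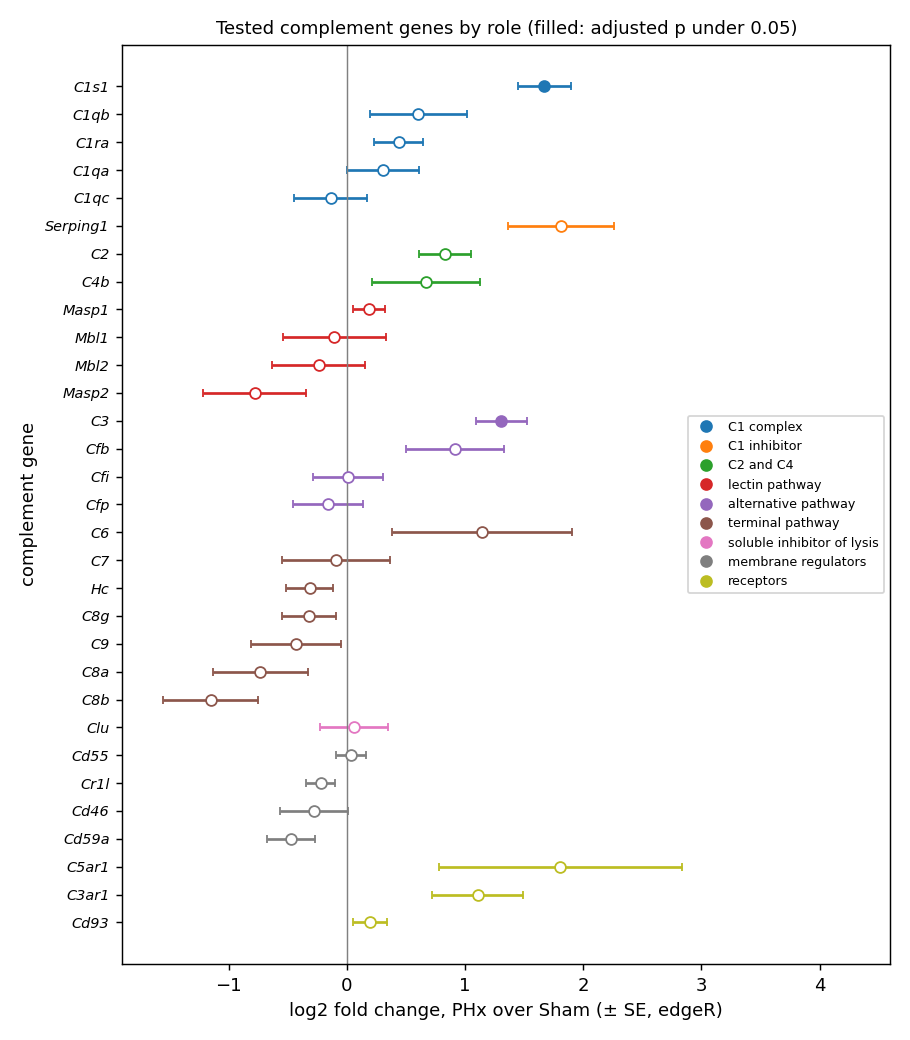
Log2 fold change of PHx over sham (x axis, ± SE from edgeR, 3 libraries per group) for the 31 tested complement genes (y axis), coloured by role, with filled points at an adjusted p under 0.05. C1s1 at 1.67 and C3 at 1.31 are the filled points, and Serping1 and C5ar1, at 1.81 each, have longer bars.

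The promoters of C1s1, of C1ra, whose protein is the partner of C1s, and of C3 are shown because C1s1 and C3 rose while C1ra did not pass. Those of C1qb and C1qc are shown because the ratio of their transcripts, from neighbouring genes, did not overlap between the groups, although it did not pass its test. Each is the 250 bases before the RefSeq start site (GRCm38.p6, the assembly of mm10), 5′ to 3′ on the gene's strand. Capitals mark matches to the searched motifs.
C1s1 (chr6:124542360-124542609, minus strand): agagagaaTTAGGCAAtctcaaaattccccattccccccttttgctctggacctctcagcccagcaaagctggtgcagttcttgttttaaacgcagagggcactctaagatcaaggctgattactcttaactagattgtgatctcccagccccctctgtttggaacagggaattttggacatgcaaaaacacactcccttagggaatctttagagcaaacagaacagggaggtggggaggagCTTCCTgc
C1ra (chr6:124512371-124512620, plus strand): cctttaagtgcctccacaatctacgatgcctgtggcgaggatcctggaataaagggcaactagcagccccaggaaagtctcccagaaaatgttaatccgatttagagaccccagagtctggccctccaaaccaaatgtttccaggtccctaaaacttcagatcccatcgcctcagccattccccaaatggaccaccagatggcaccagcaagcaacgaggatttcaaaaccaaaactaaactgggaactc
C3 (chr17:57228137-57228386, minus strand): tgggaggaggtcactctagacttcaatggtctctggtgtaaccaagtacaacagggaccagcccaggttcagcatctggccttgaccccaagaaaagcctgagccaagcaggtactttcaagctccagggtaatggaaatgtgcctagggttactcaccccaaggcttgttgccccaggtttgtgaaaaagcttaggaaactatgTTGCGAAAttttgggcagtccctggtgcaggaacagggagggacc
C1qb (chr4:136886201-136886450, minus strand): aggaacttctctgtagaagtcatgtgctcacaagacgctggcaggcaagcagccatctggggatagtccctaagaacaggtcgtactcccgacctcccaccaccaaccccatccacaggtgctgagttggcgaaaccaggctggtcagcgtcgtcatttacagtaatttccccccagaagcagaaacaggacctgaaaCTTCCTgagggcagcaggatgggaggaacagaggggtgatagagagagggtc
C1qc (chr4:136892915-136893164, minus strand): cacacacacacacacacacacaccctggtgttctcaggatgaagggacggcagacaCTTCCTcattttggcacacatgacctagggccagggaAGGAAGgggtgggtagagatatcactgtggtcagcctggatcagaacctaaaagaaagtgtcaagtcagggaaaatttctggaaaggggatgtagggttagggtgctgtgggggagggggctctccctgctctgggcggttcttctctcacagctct

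RefSeq promoters were matched for 23 of the 32 genes, and both strands were searched. The letters TTGCNNAA, known from C/EBP factors, stood 242 bases before the start of C1s1 shown here and 45 bases before that of C3, and were in 9.56% of all 32851 promoter windows of this length. AGGAAG, the core of ETS factors such as PU.1, matched C1s1, C1qb and C1qc and was in 29.5% of all windows. RefSeq has another C1s1 start, whose window (124542322 to 124542571) held AGGAAG but not TTGCNNAA. None of the searched letters matched the C1ra window. The remaining motifs were TTCNNNGAA (STAT, in 7.02% of windows), the interferon-stimulated response element (2.98%), the HNF1 motif (0.0609%) and CACGTG (E-box, 6.02%). Of the 23 genes 7 held AGGAAG, 3 TTGCNNAA, 3 TTCNNNGAA, 1 the interferon element (Cd59a), 1 the HNF1 motif (Hc) and none CACGTG. A match is a run of letters and was not tested as a binding site.

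The lists of other cells' markers are given first, because complement genes come from several cell types. Stellate and fibroblast markers had 6 of 12 genes called higher, 0 lower and a median log2 fold change of 1.31. Their summed level, in CPM (counts scaled to library size with TMM factors), was 2533 to 3278 in sham and 6524 to 7822 in PHx. Mesothelial markers had 2 of 7 genes called higher and a median of 2.43, with sums of 39.8 to 53.5 CPM and 85.5 to 179 CPM. In edgeR no gene passed among 13 hepatocyte markers (median -0.39), 10 macrophage markers (-0.64), 10 neutrophil markers (3.12), 4 monocyte markers (1.80) and 8 endothelial markers (-0.44), where 0, 1, 1, 2 and 4 genes had an unadjusted p under 0.05. DESeq2 called 4 of the endothelial markers lower (Stab2, Clec4g, Stab1 and Kdr) and 1 of the monocyte markers higher (Plac8), and none of the hepatocyte, macrophage and neutrophil markers.

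Hepatocyte marker sums were 1941, 2555 and 2241 CPM in Sham 1, 3 and 4 and 2241, 953 and 2362 CPM in PHx 1, 3 and 4, so PHx 3 was the lowest library. Neutrophil marker sums were 303, 168 and 27.8 CPM in sham and 636, 29.7 and 4253 CPM in PHx, with PHx 4 the highest. Endothelial marker sums, over Stab2, Lyve1, Clec4g, Mcam and 4 further genes, were 23513 to 26302 CPM in sham and 13542 to 20593 CPM in PHx. These sinusoidal endothelial markers were abundant in all 6 libraries.

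The macrophage list is dominated by Mrc1 and Msr1, which sinusoidal endothelial cells express too. Its defining genes are Clec4f and Timd4, which mark Kupffer cells, the liver's resident macrophages, with Adgre1 and Cd68. Together they summed to 196, 44.8 and 109 CPM in Sham 1, 3 and 4 and to 70.0, 67.9 and 53.8 CPM in PHx. No listed marker of any of these cell types was at 0 in any library. The part of these cells in the results below was not tested, except where a covariate fit is named.

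**Figure D2:**
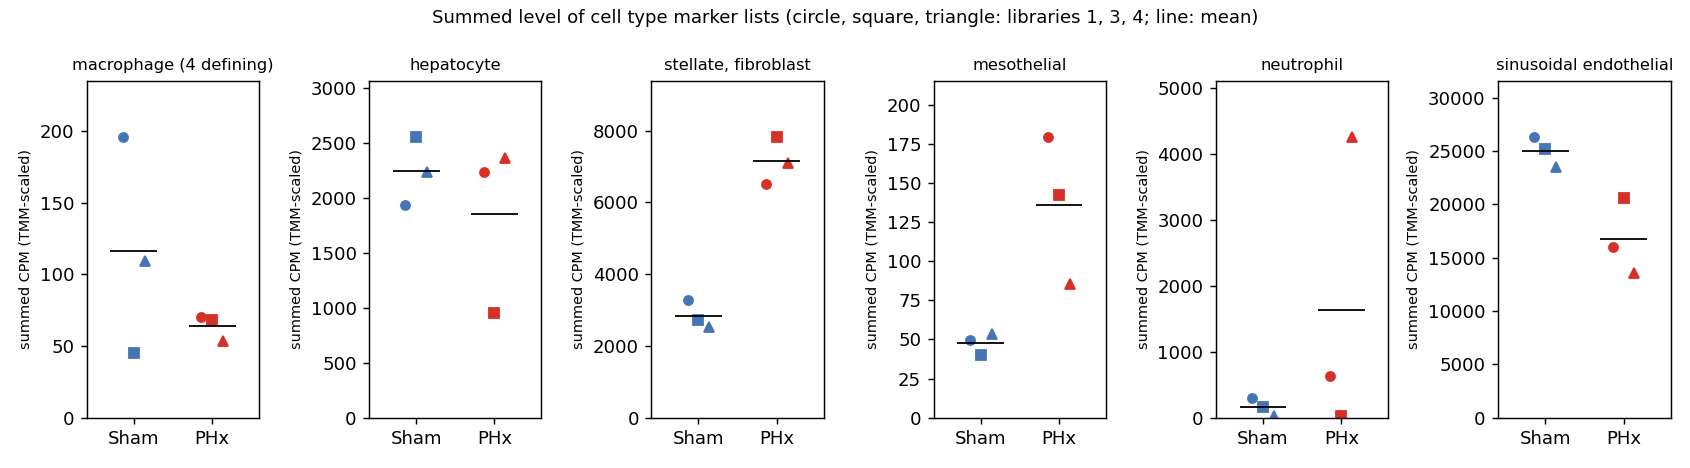
Summed TMM-scaled CPM (y axis) of 6 marker lists in each sham (blue) and PHx (red) library, with the group mean as a line. Stellate and mesothelial sums are higher in every PHx library, endothelial sums are lower, and the neutrophil sum of PHx 4 stands at 4253 CPM.

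C1s1 encodes C1s, the protease of the C1 complex that cleaves C4 and C2. It stood at 39.9, 31.9 and 26.9 CPM in Sham 1, 3 and 4 and at 102, 79.6 and 133 CPM in PHx 1, 3 and 4. Every PHx library lay above every sham library. The group levels were 32.9 ± 6.56 and 105 ± 26.8 CPM (SD, n = 3), a log2 fold change of 1.67 ± 0.22 (SE) with an edgeR adjusted p of 0.0260, or 3.19-fold. The gene lies on chromosome 6 (124530344 to 124542392, mm10, minus strand).

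The C1s1 direction held in all 14 alternatives, at 1.46 to 1.83, but the call passed in 8 of them, with adjusted p from 1.67e-09 to 0.170. The losses include the fits without Sham 1 (edgeR adjusted p = 0.0784), Sham 3 (0.165), Sham 4 (0.147) or PHx 1 (0.0731), and that with the macrophage marker mean as a covariate (0.170). With that covariate the C1s1 log2 fold change was 1.64, and 13 genes of the whole table were called higher, against 161 without it. The stellate marker sums above were also higher in every PHx library than in sham, but with another order within PHx. That sum was highest in PHx 3 (7822 CPM), where C1s1 was the lowest of the PHx libraries (79.6 CPM). Its genes differed in their order, however. Col1a1, Col1a2 and Col3a1 were highest in PHx 3. Dcn, Pdgfrb, Pdgfra and Cygb were lowest in PHx 3 and highest in PHx 4, as C1s1 was. The other listed stellate markers had neither pattern. The part of stellate cells in the C1s1 values was not tested.

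C1ra encodes C1r, which cleaves and activates C1s, and lies beside C1s1 on chromosome 6 (124512621 to 124523440). It stood at 96.2, 88.5 and 78.0 CPM in sham and at 110, 88.9 and 158 CPM in PHx. PHx 3 lay within the sham range, and the gene did not pass (log2 fold change 0.44 ± 0.21, edgeR adjusted p = 0.430). The near relatives C1rb and C1s2 stayed at or below 0.348 CPM in every library.

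C1r and C1s join in equal numbers in the C1 complex, and the ratio of their transcripts was formed in each library. Per length, in the authors' RPKM, the C1s1:C1ra ratio was 0.368, 0.320 and 0.306 for sham libraries 1, 3 and 4, and it was 0.823, 0.794 and 0.748 for the PHx libraries of those numbers. The ratio within a library does not depend on library scaling. The groups did not overlap and the spread inside each was small (0.331 ± 0.0326 and 0.788 ± 0.0381, SD, n = 3). In PHx the proteases' transcripts stood closer to equal levels than in sham.

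This ratio was 1 of 7 formed between partner subunits of C1q, C1r with C1s, and C8, of which 2 had groups without overlap. Its two-sided exact permutation p was 0.1, the smallest that 3 against 3 libraries allow, and 0.28 after Benjamini-Hochberg adjustment over the 7. The other ratio without overlap was C1qb:C1qc.

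**Figure D3:**
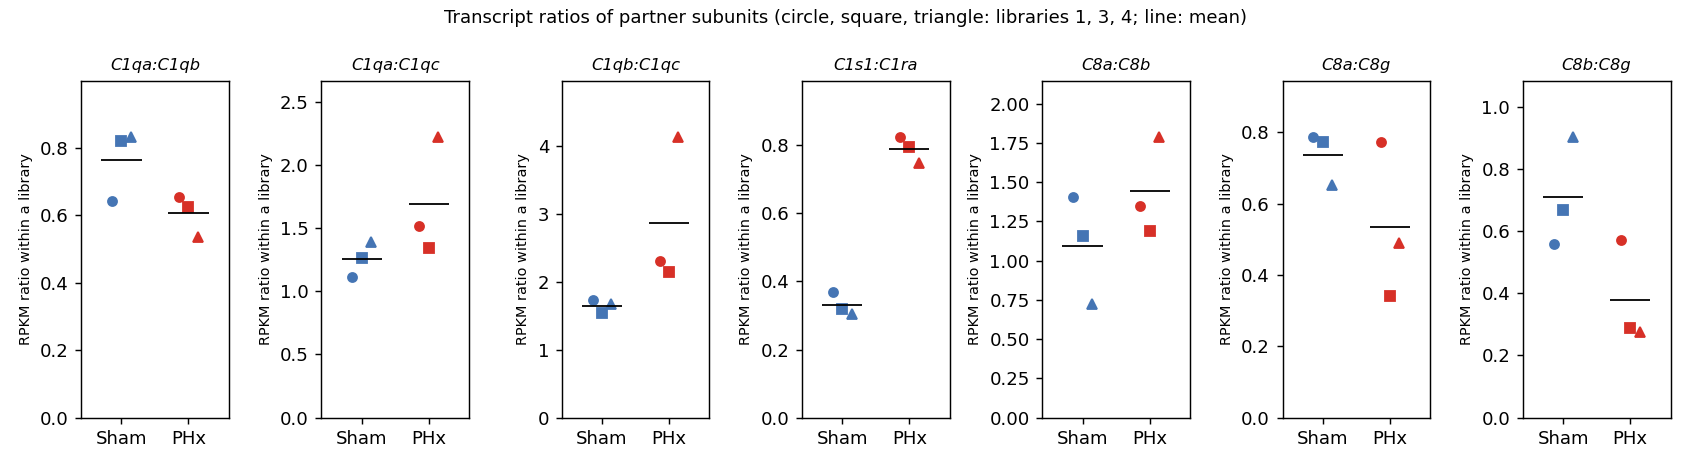
Ratio of deposited RPKM values within each library (y axis) for 7 pairs of complement partner subunits, in sham (blue) and PHx (red) libraries, with the group mean as a line. The C1s1:C1ra ratio lies near 0.331 in sham and near 0.788 in PHx with little spread, and the C1qb:C1qc ratio of PHx 4 stands at 4.13.

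C1qa, C1qb and C1qc encode the A, B and C chains of C1q, which recognizes antibody complexes and dying cells, and lie in 1 cluster on chromosome 4 (136880145 to 136898844). None passed, with log2 fold changes of 0.31 ± 0.30, 0.61 ± 0.41 and -0.14 ± 0.31. C1qb stood at 67.0, 24.8 and 39.9 CPM in sham and at 65.0, 46.3 and 88.9 CPM in PHx. Sham 1 and PHx 4 were high and the groups overlapped, as they did for C1qa and C1qc.

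C1qc stood at 40.8, 17.0 and 25.2 CPM in sham and at 29.8, 22.8 and 22.7 CPM in PHx. The C1qb:C1qc ratio per length was 1.74, 1.54 and 1.68 in sham and 2.31, 2.14 and 4.13 in PHx, so PHx 4 stood apart (exact permutation p = 0.1, adjusted p = 0.28 over the 7 ratios). The sham libraries had the same order for C1qa, C1qb and C1qc and for the sum of the 4 defining macrophage markers, with Sham 1 highest and Sham 3 lowest, but not for the whole macrophage list, which was highest in Sham 4. PHx 4 had the highest C1qa and C1qb of all libraries, at 48.7 and 88.9 CPM. Macrophage markers did not move together in PHx 4, which had the lowest Clec4f, Timd4, Cd5l, Cd163 and Mrc1 of the 6 libraries and the second highest Cd68, Csf1r and Msr1.

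Serping1 encodes the C1 inhibitor, which blocks C1r, C1s and the MASP proteases (chromosome 2, 84765360 to 84775444). It stood at 159, 109 and 89.3 CPM in sham and at 351, 224 and 680 CPM in PHx. All PHx libraries lay above all sham libraries, and PHx 4 was far above the rest. The log2 fold change of 1.81 ± 0.45 did not pass in edgeR (adjusted p = 0.192), while DESeq2 called it (adjusted p = 1.35e-04). Without PHx 4 it was 1.27 in edgeR, with an adjusted p of 0.220.

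C2 and C4 form the classical and lectin C3 convertase. C2 stood at 45.8, 32.9 and 30.1 CPM in sham and at 70.1, 47.6 and 75.7 CPM in PHx, so the groups did not overlap. Its log2 fold change of 0.83 ± 0.22 did not pass in edgeR (adjusted p = 0.192), and DESeq2 called it (adjusted p = 0.0222). C4b stood at 194, 126 and 79.3 CPM in sham and at 213, 114 and 309 CPM in PHx, with overlap (0.67 ± 0.46, edgeR adjusted p = 0.579). C4b has a near-identical copy, C4a, listed at 1.59 to 6.56 CPM, so reads may be split between them.

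C3, whose cleavage tags surfaces and releases the anaphylatoxin C3a, is the other gene that rose. It stood at 428, 476 and 435 CPM in Sham 1, 3 and 4 and at 1257, 754 and 1299 CPM in PHx 1, 3 and 4. The sham libraries lay close together, and all PHx libraries were above them. The log2 fold change was 1.31 ± 0.22 (SE, n = 3 per group), with an edgeR adjusted p of 0.0462, from 446 ± 25.8 to 1103 ± 303 CPM (SD). The gene lies on chromosome 17 (57203967 to 57228136, minus strand).

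The C3 call is near the threshold. It passed in 6 of 14 alternatives, with log2 fold changes from 1.17 to 1.51 and adjusted p from 1.03e-06 to 0.244. The losses include the fits without Sham 1 (edgeR adjusted p = 0.209), Sham 3 (0.225), Sham 4 (0.244), PHx 1 (0.115) or PHx 4 (0.0716), the macrophage covariate (0.240) and limma-voom (0.0629). With the macrophage covariate the C3 log2 fold change was 1.18. With the hepatocyte marker mean as a covariate the log2 fold change was 1.51, with an edgeR adjusted p of 0.0206.

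**Figure D4:**
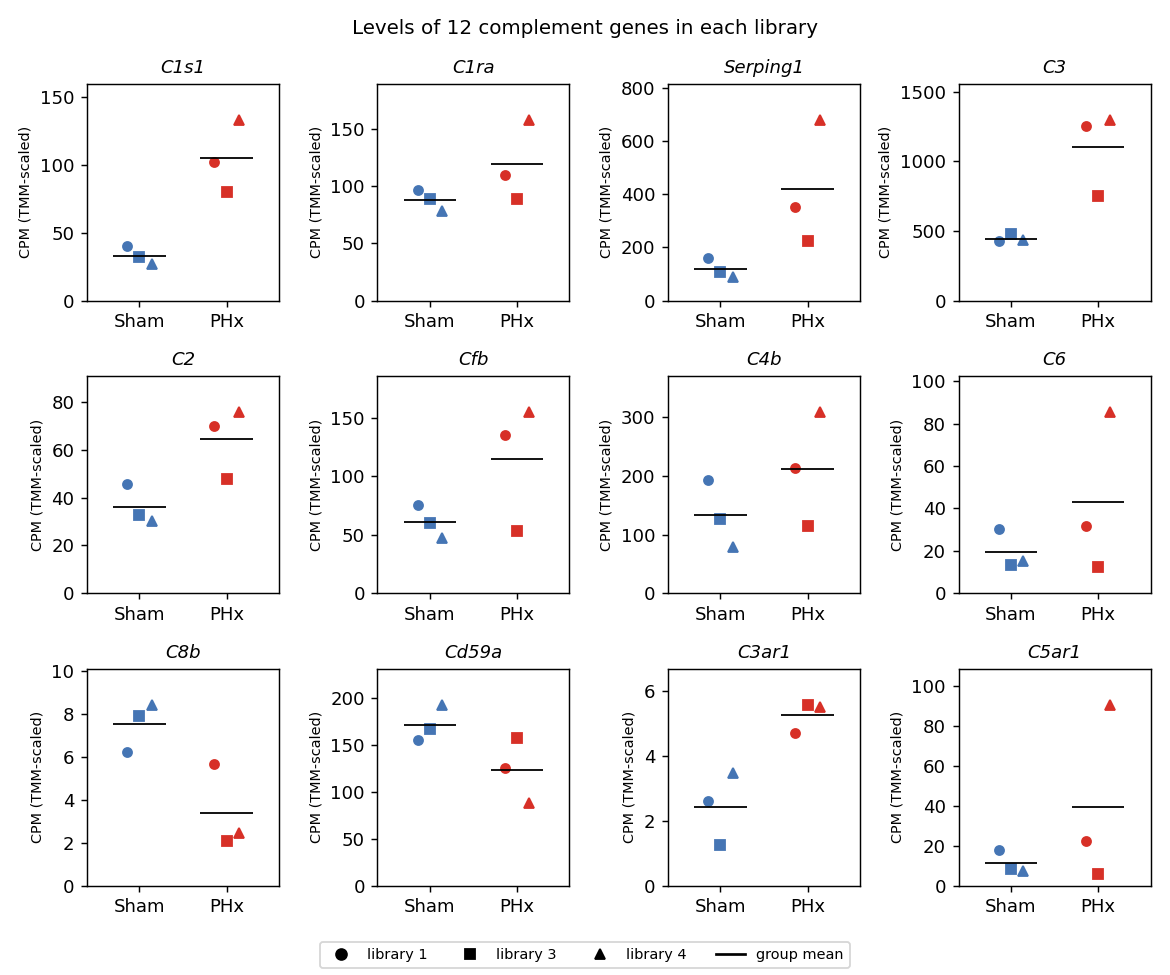
TMM-scaled CPM (y axis, from 0) of 12 complement genes in each sham (blue) and PHx (red) library, with the group mean as a line. C1s1, Serping1, C3, C2 and C3ar1 have all PHx libraries above sham, C8b has them below, and C6 and C5ar1 are high in PHx 4, at 85.4 and 90.6 CPM.

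Other alternative pathway genes did not pass. Cfb, which encodes factor B, the protease of the alternative C3 convertase, lies next to C2 on chromosome 17 (34856374 to 34862514). It stood at 75.4, 60.1 and 47.1 CPM in sham and at 136, 53.0 and 155 CPM in PHx, with PHx 3 inside the sham range (0.91 ± 0.41, edgeR adjusted p = 0.433). In C3, C2, Cfb, C4b and Serping1 alike, PHx 3 was the lowest and PHx 4 the highest of the PHx libraries.

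Cfp, properdin, which stabilizes that convertase and is made by myeloid cells, had a log2 fold change of -0.16 ± 0.30. Cfi, the protease that inactivates C3b, had 0.01 ± 0.30, and its sign turned in several alternatives. Cfd, the adipose protease factor D, was too low to test, with 0, 7 and 5 counts in sham and 1, 3 and 40 counts in PHx.

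In the lectin pathway Masp1 was abundant in every library, at 943, 865 and 765 CPM in sham and 944, 1037 and 951 CPM in PHx. It encodes the protease MASP-1 and shorter products of the same gene. The PHx libraries lay above sham by a narrow margin, and the difference of 0.19 ± 0.13 on the log2 scale did not pass (edgeR adjusted p = 0.582). Per length Masp1 ranked 4th of the 32 genes, at a mean of 142 RPKM, and above C1s1, at 22.3 RPKM. Masp2, Mbl1 and Mbl2 were scarce and stood between 0.812 and 3.25 CPM in all libraries, with log2 fold changes of -0.78, -0.10 and -0.24 that did not pass. The end of Masp2 overlaps Tardbp on the other strand by 3101 bases, so its counts may hold reads of that gene.

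The terminal pathway genes encode the proteins of the membrane pore. None of the 7 passed, 6 had negative log2 fold changes, and the median was -0.32. C8b, the beta chain of C8, stood at 6.23, 7.93 and 8.43 CPM in sham and at 5.66, 2.07 and 2.44 CPM in PHx. It was the 1 member whose PHx libraries all lay below sham (-1.15 ± 0.40, edgeR adjusted p = 0.309).

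The other C8 chains had log2 fold changes of -0.73 ± 0.40 (C8a) and -0.32 ± 0.23 (C8g). C8g overlaps Fbxw5 on the other strand by 953 bases. C9, the pore-forming subunit, had -0.43 ± 0.38, Hc, which encodes C5, -0.31 ± 0.20, and C7, at 0.753 to 1.79 CPM, -0.09 ± 0.45. The C8a, C8b and C9 levels were lower in PHx 3 and 4 than in any sham library, while PHx 1 was within or close to the sham range. The hepatocyte marker sums were 2241, 953 and 2362 CPM in PHx 1, 3 and 4. With the hepatocyte marker mean as a covariate, the log2 fold changes were -0.42 (C8a), -0.90 (C8b) and -0.19 (C8g). In that fit C9 was at -0.20, Hc at -0.17 and C7 at -0.29, and none passed (edgeR adjusted p from 0.353 to 0.858). The part of hepatocyte RNA in these values was not tested beyond this fit.

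C6 differed from the other terminal genes. It stood at 30.2, 13.5 and 15.0 CPM in sham and at 31.6, 12.6 and 85.4 CPM in PHx, so its log2 fold change of 1.14 ± 0.76 came from PHx 4 and was 0.18 without it, with the call absent in both (edgeR adjusted p = 0.572 and 0.972). The same library held the most neutrophil transcripts.

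Clu, which encodes clusterin, a chaperone that blocks pore assembly, was the most abundant of the 32 genes per length, at a mean of 412 RPKM. It stood at 586, 1029 and 915 CPM in sham and 1099, 588 and 955 CPM in PHx, and the groups overlapped (0.06 ± 0.29, edgeR adjusted p = 0.946).

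Membrane regulators did not pass. Cd55, the decay-accelerating factor that dissociates C3 convertases, stood between 810 and 962 CPM in all libraries (0.04 ± 0.13). Cr1l, the rodent regulator also called Crry, was at 79.6, 80.1 and 79.1 CPM in sham and at 64.4, 80.4 and 60.1 CPM in PHx (-0.22 ± 0.12). Cd59a, which blocks C9 insertion, was at 156, 167 and 193 CPM in sham and at 125, 158 and 88.8 CPM in PHx (-0.47 ± 0.20, edgeR adjusted p = 0.398). PHx 3 was at the sham level for Cr1l and Cd59a, and PHx 4 was the lowest library for both. Cd46, which in mice is known mainly from testis, stood at 2.04 to 3.55 CPM.

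The endothelial marker sums followed the same order within PHx, with PHx 3 highest and PHx 4 lowest. The part of the endothelial share in the Cr1l and Cd59a values was not tested. Per length, Cd55, Cd93 and Cd59a ranked 5th to 7th, at 90.7, 83.1 and 68.9 RPKM. The ranges of their 6 libraries overlapped, so this order does not exceed their spread.

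Among receptors, Cd93, an endothelial and myeloid glycoprotein first described as a C1q receptor, stood at 490 to 555 CPM in sham and at 512 to 686 CPM in PHx (0.20 ± 0.14, edgeR adjusted p = 0.593). C3ar1, the receptor of C3a, was low, at 2.60, 1.24 and 3.47 CPM in sham and 4.69, 5.57 and 5.50 CPM in PHx. All PHx libraries lay above sham, and the difference did not pass (1.11 ± 0.38, edgeR adjusted p = 0.307).

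C5ar1, the receptor of C5a on neutrophils and macrophages, was at 18.0, 8.39 and 7.58 CPM in sham and at 22.2, 5.84 and 90.6 CPM in PHx. Its log2 fold change was 1.81 ± 1.03 and 0.31 without PHx 4 (edgeR adjusted p = 0.521 and 0.953). The 4 libraries with the most C5ar1, PHx 4, PHx 1, Sham 1 and Sham 3, were also the 4 with the most neutrophil transcripts, in the same order.

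The genes were also grouped by an assigned source each, which need not be their only source. C4b and Clu were placed among the stromal genes. Of 6 macrophage and myeloid genes 0 were called, with a median of 0.46. Of 8 stromal genes 7 were tested and 1 rose (C1s1), with a median of 0.44. Of 13 hepatocyte genes 1 rose (C3), with a median of -0.24 and 8 negative values, and of 5 surface genes 0 were called (median -0.22). The hepatocyte group was not uniform, since C3, C2, Cfb and C6 had positive values from 0.83 to 1.31 Cfi stood at 0.01, and the C8 chains, C9, Hc, Masp2, Mbl1 and Mbl2 had negative ones. The cell surface genes summed to 1610 to 1668 CPM in sham and 1655 to 1708 CPM in PHx.

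A further 30 complement genes served as the rest of the pathway. The table held 29 of them, 23 were tested, none passed in edgeR in either direction, 4 had an unadjusted p under 0.05, and the median was -0.08. DESeq2 called 2 higher, Colec10 and Colec11, which encode the soluble collectins that carry MASP proteases. Colec10 stood at 161, 126 and 121 CPM in sham and at 280, 272 and 518 CPM in PHx (1.39 ± 0.27, edgeR adjusted p = 0.0849). Colec11 stood at 164, 132 and 103 CPM and at 278, 242 and 367 CPM (1.15 ± 0.21, edgeR adjusted p = 0.0652). Both had all PHx libraries above sham, while the mannose-binding lectins Mbl1 and Mbl2 did not.

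Fcna, a ficolin of macrophages, stood at 151, 106 and 96.1 CPM in sham and at 140, 148 and 32.1 CPM in PHx (-0.14 ± 0.59). PHx 4 was the lowest library.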

How the data were processed

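Raw whole-number counts per gene and RPKM values were deposited by the authors in 1 table, per the file headers. The deposited length, another column of the file headers, is the base pairs per gene. Per the submitters' processing notes, the tools include bcl2fastq and TopHat2 2.0.13, and the build is mm10 (GRCm38). For the counting program, annotation and strand setting, the answer is not given in the sources used here, so reads of overlapping genes and close copies cannot be told apart. All RPKM values (100%, tolerance 1e-06) equalled count over length and summed counts. They served for levels between genes and for subunit ratios.

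Libraries held 38765116 to 51888481 counts. Where no count was seen, up to 3 counts remain possible (0.0580 to 0.0795 CPM, counting error only). No library was a copy of another (chi-square per degree of freedom at least 52.9). The groups were compared by edgeR 4.0.16 under R 4.3.3 (TMM, filterByExpr, robust quasi-likelihood F-tests, Benjamini-Hochberg over all 19033 tested genes), with group as the only term. SE is the absolute log2 fold change over the square root of F. The fit was tested on simulated data with known changes. It recovered 25% of changes of log2 size 1 and 73% of those of log2 size 2. Of its 111 calls at an adjusted p under 0.05, 13 were false. A gene that did not pass may therefore still differ, and a gene that was called, C1s1 and C3 included, may be a false call. Alternatives were other scalings, no filter, DESeq2 1.42.0, limma-voom (limma 3.58.1), an adjusted p under 0.01, a replicate block, 2 marker covariates and leaving out each library. All 32 genes are named. Of the other complement genes any called gene was to be named and otherwise the 4 with the highest mean CPM (1 of them is not reported here), and of marker lists the defining genes. Mrc1, Msr1 and overlapping or copied genes were named after their values were seen. The genes, lists, motifs and subunit ratios were chosen with earlier results of these data known. Positions of all 32 genes overlapped the same gene in GENCODE M21.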

Additional observations from a re-analysis of the deposited data

How the results depend on the processing

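Of the complement genes described, 2 were called higher and 0 lower. The higher count was 4 with DESeq2, 1 with limma-voom, 0 at an adjusted p under 0.01, 0 with the macrophage marker covariate and 0 to 2 when each library was left out (0 without Sham 1, Sham 3, Sham 4 or PHx 1). In those fits 5 to 8 genes were higher at an unadjusted p under 0.05, and 4 with the macrophage covariate. With the replicate number as a block it was 0, with edgeR adjusted p of 0.133 for C1s1 and 0.168 for C3, the remaining alternative in which each call was lost. Deviations from the group means correlated at -0.10, -0.23 and 0.03 between libraries of one number, and at -0.38 to 0.47 between libraries of unlike numbers. With 3 libraries per group these correlations depend on each other, so they cannot show whether the numbers pair the libraries. The lower count was 0 in every alternative. Over all tested genes, 161 were called higher by the edgeR test on all libraries, 721 with DESeq2 and 94 with limma-voom. That number was 16 at an adjusted p under 0.01, 13 with the macrophage covariate and 14 with the replicate block. It was 34, 6 and 0 without Sham 1, 3 and 4, and 58, 82 and 160 without PHx 1, 3 and 4. The fits with 0 complement genes called higher had 0 to 58 genes called higher across the table. The complement calls and the table's calls did not always fall together, however. Without PHx 4 the C3 call was lost (edgeR adjusted p = 0.0716), while 160 genes of the table were still called higher. With the hepatocyte marker covariate the table had 53 genes called higher, and without PHx 3 it had 82. C1s1 and C3 were both still called in each of these fits. Of the other complement genes 1 was called higher with no filter on low counts, 2 with DESeq2 and 0 to 1 when each library was left out, against 0 by the edgeR test on all libraries. Of the 31 tested genes 24 kept their sign in all alternatives, and the others had not passed. Cfi was at -0.027 with upper-quartile factors, -0.022 with no filter, -0.075 with limma-voom, -0.061 with the replicate block and -0.15 with the macrophage covariate. With that covariate C1qc was at 0.34, Cfp at 0.091, Clu at -0.15 and Fcna at 0.21, and with the hepatocyte covariate Mbl1 was at 0.22. Leaving out each library gave -0.42 to 0.23 for C1qc, -0.34 to 0.19 for C7, -0.18 to 0.29 for Cfi, -0.41 to 0.15 for Cfp, -0.049 to 0.068 for Cd55, -0.45 to 0.23 for Mbl1, -0.17 to 0.28 for Clu and -0.46 to 0.29 for Fcna. A stricter threshold loses calls by construction. Elsewhere the cause was not tested.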
